A study of Mus musculus with 6 samples.

Results

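The genes described here encode the aminoacyl-tRNA synthetases of the mouse, and 38 of the 56953 genes in the count tables are members. They were chosen by symbol alone, as protein-coding genes named by a single-letter amino acid code followed by "ars", with or without a closing digit, together with Farsa, Farsb, Tarsl2 and Eprs. The rule uses no expression value of these libraries, although the family itself was picked for description with earlier results of these data known. The 17 members whose symbol carries a closing digit for the organelle form are called mitochondrial here, and the other 21, Tarsl2 among them, are called cytosolic. Gars and Kars stand among the cytosolic genes, although each is known to supply the enzyme of both compartments.

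An aminoacyl-tRNA synthetase joins a given amino acid to the tRNAs that carry it, at the cost of ATP, and the charged tRNA is then used by the ribosome. Mammalian cells keep separate nuclear genes for most cytosolic and mitochondrial enzymes, and several cytosolic enzymes are held together in a multisynthetase complex. When charged tRNA runs short, uncharged tRNA activates the kinase GCN2, eIF2 alpha is phosphorylated and the transcription factor ATF4 is made, and ATF4 is known to induce amino acid transport, amino acid synthesis and many cytosolic synthetase genes.

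Natural killer (NK) cells are lymphocytes that kill virus-infected and tumour cells. They were taken from the spleen of wild-type C57BL/6 mice and grown for 7 days. The hypoxia group (3 libraries) was kept at 1% oxygen and the normoxia group (3 libraries) at 20% oxygen. Both groups shared 5% CO2, 1700 U/ml of recombinant human interleukin-2 and an RPMI-1640 medium with serum, glutamine, pyruvate and non-essential amino acids. The labels call the libraries biological replicates and do not tell whether each had its own mouse, pool of mice or culture, and the spread behind every p-value is only the one between these libraries. Neither the age of the mice nor how the NK cells were isolated is given in the sources used here. A question that the design addresses is how low oxygen changes gene expression in these cells.

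Each library held between 55104810 and 55794698 estimated counts, and every member passed the filter on low counts, the smallest count of any member in any library being 385. Levels below are CPM (counts of a gene scaled to a common library total, with TMM factors), and a log2 change compares hypoxia with normoxia, negative where hypoxia was lower, and is given with its standard error (SE). A gene is said to have risen or fallen where the edgeR quasi-likelihood test gave a Benjamini-Hochberg adjusted p under 0.05 over the 15591 genes tested. By that test 9.72% of all tested genes fell and 11.2% rose, 1516 and 1745 genes, and with scaling by library size alone 998 fell and 2384 rose. The replicate 1 libraries of both groups stood apart on the second principal component (23.17 and 34.97, against -20.23 to -11.44 in the other 4). Libraries that share a replicate number deviated together from their group means, so results with the replicate number in the fit (the replicate block) are given where they change a call.

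Cytosolic synthetase mRNA was lower at 1% oxygen. Of the 21 cytosolic genes, 13 fell and 0 rose, where 9.72% of all tested genes fell, and their median log2 change was -0.43 against -0.0052 for all tested genes. The genes that fell were Cars, Nars, Aars, Mars, Yars, Tars, Qars, Iars, Lars, Sars, Gars, Vars and Farsb, by 1.27-fold to 1.60-fold. The estimates of 20 of the 21 genes, all but Tarsl2, were below 0 here and in each of the 15 other settings. Summed over the 21 genes the level was 2952, 2961 and 3190.1 CPM in the hypoxia libraries and 4024, 3887 and 4034 CPM in the normoxia libraries, so the groups did not overlap. Such bulk values cannot tell fewer cells of a type from less RNA per cell.

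Of the 17 mitochondrial genes, 2 fell, Fars2 among them, and 1 rose (Pars2), where 9.72% of all tested genes fell and 11.2% rose. The difference between the cytosolic and mitochondrial genes as groups was not tested. The share of mitochondrial genes that fell was near that of all tested genes, and their median log2 change was -0.08, which became 0.0027 with scaling by library size alone. The cytosolic median was -0.35 in that setting. Summed over the 17 genes the level was 437, 460.1 and 468 CPM in hypoxia and 465, 485 and 510.1 CPM in normoxia, and here the groups overlapped. With the replicate block 18 cytosolic and 5 mitochondrial genes fell, where 20.0% of all tested genes fell and 19.2% rose in that fit, and 0 cytosolic genes and 1 mitochondrial gene rose.

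**Figure D1:**
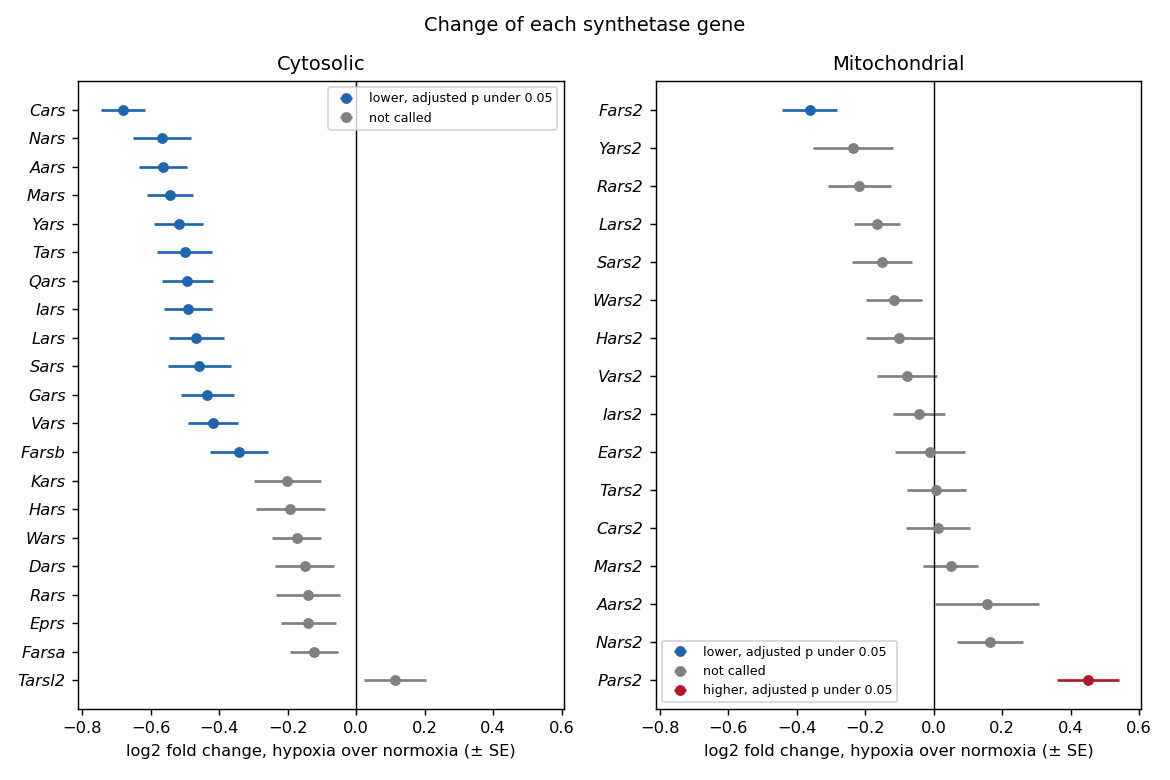
Log2 change of 37 of the 38 genes, hypoxia over normoxia, with its SE as bars, cytosolic genes on the left and mitochondrial genes on the right. Blue points passed the test as lower (13 and 1), the red point as higher (Pars2), and grey points were not called. Every cytosolic gene but Tarsl2 lies below 0.

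Markers of NK cells summed to 26112 to 30101 CPM in hypoxia and 23699 to 26911 CPM in normoxia, most of it Gzma and Gzmb, the granzyme genes. All 10 were detected, Gzma rose (log2 change 0.81, SE 0.11, adjusted p by edgeR = 0.00071), Eomes, a transcription factor of NK cells, fell (log2 change -0.63, SE 0.11, adjusted p by edgeR = 0.0028), and with the replicate block 3 were higher and 5 lower. For this and the following marker counts, 11.2% of all tested genes rose and 9.72% fell. With the replicate block the shares of all tested genes were 19.2% and 20.0%. Of markers of other cells that the cultures could hold, the 8 T cell genes summed to 263 to 312 CPM in hypoxia and 234 to 257 CPM in normoxia. Cd3d, Cd3g and Cd4 were higher by the test, the last at under 1 CPM in every library. Trbc2 averaged 104 CPM in hypoxia and 122 CPM in normoxia. Trbc2, Cd3e and Trac had log2 changes of -0.23, -0.05 and -0.08, and Cd8a and Cd8b1 of 0.15 and 0.41, none of them called. With the replicate block 4 of the 8 were higher and 1, Trbc2, was lower (adjusted p by edgeR = 0.0083). The 6 basophil and mast cell genes summed to 382 to 437 CPM and 235 to 258 CPM, with the 3 tested members (Mcpt8, Kit and Cpa3) higher and most of the sum from Kit, while Fcer1a and Ms4a2 did not exceed 0.0178 CPM in any library. The 8 macrophage and dendritic cell genes summed to 53.6 to 85.4 CPM and 18.4 to 30.9 CPM, mostly through Cd68 and with 2 higher and 1 lower of 4 tested, and C1qa was at 0 in every library. Of the 2 called higher, Lyz2 was at 0 in every normoxia library and passed the filter only through the hypoxia libraries. B cell markers came to 72.9 to 77.8 CPM and 54.8 to 70.2 CPM, nearly all of it Ighm, with 1 of 2 tested (Cd79b) higher. With the replicate block Ighm passed as higher too (adjusted p by edgeR = 0.0022). The 6 neutrophil markers summed to 0.683 to 1.91 CPM and 0.127 to 0.305 CPM, with Retnlg at 0 in every library. S100a8 and S100a9, the 2 tested, were each at 0.019, 0 and 0 CPM in normoxia. They passed the filter only through the hypoxia libraries, so their call as higher was set by the filter. Ly6g, not tested, was at 0.171, 0.0905 and 0.0914 CPM in normoxia and 0.035, 0.052 and 0 CPM in hypoxia. The 6 erythroid markers did not exceed 0.156 CPM. The part of these other cells in the synthetase values was not tested.

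The promoters of several genes that fell hold a short motif, and they are shown because the members moved together and because ATF4 is known to act through it. TGATGNAA (TTNCATCA on the other strand) is the core of the composite element bound by ATF4 with a C/EBP partner. A window of 300 bases, from 250 before to 50 after the annotated start, was found by symbol in the RefSeq table for 28 of the 38 members. Members without an entry included Cars, Hars, Hars2, Lars, Nars, Pars2, Rars, Vars and Wars. Both strands were searched, and the motif was present in 5 of the 9 cytosolic genes that fell and had a window, in 0 of the 5 cytosolic genes that were not called and in 0 of the 14 mitochondrial genes. By comparison, 4.51% of the 27025 genes with a window held it, as did 5.10% of tested genes that fell, 3.09% of those that rose and 2.45% of those not called. Of 19 listed ATF4 pathway genes with a window, 6 held it.

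The stretches below run from base 101 to base 280 of the window, 5′ to 3′ on the strand of the gene, with the annotated start at base 251 and the motif in capitals. They are RefSeq sequence of the build GRCm38.p6, an earlier build than the GRCm39 named for these data: Aars at chr8:111033692-111033871 on the plus strand, Gars at chr6:55037851-55038030 on the plus strand, Iars at chr13:49681980-49682159 on the plus strand, Tars at chr15:11399629-11399808 on the minus strand and Yars at chr4:129189753-129189932 on the plus strand. Tars2 (chr3:95754948-95755127, minus strand), the mitochondrial counterpart of Tars, and Kars (chr8:112011325-112011504, minus strand), a cytosolic gene that was not called, are given for comparison and hold no match.
Aars: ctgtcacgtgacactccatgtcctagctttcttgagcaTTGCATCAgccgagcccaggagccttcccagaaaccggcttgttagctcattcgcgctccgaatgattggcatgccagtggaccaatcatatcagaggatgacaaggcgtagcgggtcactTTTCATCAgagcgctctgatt
Gars: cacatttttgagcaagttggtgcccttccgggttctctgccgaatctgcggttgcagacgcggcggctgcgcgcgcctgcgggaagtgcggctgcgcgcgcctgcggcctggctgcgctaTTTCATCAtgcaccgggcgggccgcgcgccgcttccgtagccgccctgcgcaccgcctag
Iars: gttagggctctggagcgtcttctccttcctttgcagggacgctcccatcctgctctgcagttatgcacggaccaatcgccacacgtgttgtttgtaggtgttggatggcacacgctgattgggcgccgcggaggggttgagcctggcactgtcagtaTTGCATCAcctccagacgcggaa
Tars: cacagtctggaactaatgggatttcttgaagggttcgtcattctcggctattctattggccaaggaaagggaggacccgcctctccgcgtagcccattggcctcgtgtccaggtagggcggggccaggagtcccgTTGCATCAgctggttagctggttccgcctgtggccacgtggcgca
Yars: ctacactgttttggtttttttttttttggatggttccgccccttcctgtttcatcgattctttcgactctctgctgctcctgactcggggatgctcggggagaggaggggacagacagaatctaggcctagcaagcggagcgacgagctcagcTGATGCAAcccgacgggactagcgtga
Tars2: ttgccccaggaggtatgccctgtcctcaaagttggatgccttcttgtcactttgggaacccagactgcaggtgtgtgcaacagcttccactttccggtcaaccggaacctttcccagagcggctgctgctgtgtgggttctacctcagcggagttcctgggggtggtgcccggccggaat
Kars: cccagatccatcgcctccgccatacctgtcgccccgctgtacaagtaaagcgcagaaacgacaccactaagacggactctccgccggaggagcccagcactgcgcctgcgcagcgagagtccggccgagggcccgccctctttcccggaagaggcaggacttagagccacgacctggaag

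In Aars the motif began at bases 139 and 260 of the window, in Gars at 221, in Iars at 258, in Tars at 236 and in Yars at 254, the last in the forward reading and the others in the reverse. Aars, Iars, Tars and Yars held the letters TTGCATCA or their reverse complement, while Gars and the site of Aars at base 260 had TTTCATCA. Farsb, Mars, Qars and Sars fell without a match in the window. The E-box CACGTG, a palindrome bound by MYC with MAX and by other factors, was found in 4 of the 9 cytosolic genes that fell (Aars, Farsb, Iars and Tars), in 0 of the 5 not called and in 1 of the 14 mitochondrial genes (Ears2), against 8.09% of all genes with a window. Among tested genes it was held by 10.0% of those that fell and 11.7% of those not called, with those that rose in between. No match of either motif overlapped the other in these windows. A match is a run of letters and does not show binding, and a window without it says nothing of sites elsewhere. Whether factors that bind either motif had a part in the synthetase changes was not tested.

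Among the cytosolic enzymes outside the multisynthetase complex, 9 of 13 genes fell, where 9.72% of all tested genes did. Cars, which charges cysteine tRNA, fell furthest, from 97.99, 103 and 99.4 CPM in the normoxia libraries to 61.3, 61.6 and 64.2 CPM in the hypoxia libraries (log2 change -0.68, SE 0.06, adjusted p by edgeR = 0.00012). The libraries of each group lay within a few CPM of each other. Nars, the asparagine enzyme, was at 416, 356 and 366 CPM in normoxia and 260.4, 244 and 264 CPM in hypoxia (log2 change -0.57, SE 0.08, adjusted p by edgeR = 0.0014). The replicate 1 normoxia library was the highest and the groups were far from overlapping.

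Aars, the alanine enzyme and the gene whose promoter stretch held the motif at 2 places, went from 267, 277 and 287 CPM to 187, 188 and 187 CPM (log2 change -0.56, SE 0.07, adjusted p by edgeR = 0.00050). The 3 hypoxia libraries were nearly equal. In the GENCODE M21 annotation an Aars transcript runs through Exosc6, an exosome subunit gene on the same strand, which shares 13.8% of the 31-base words of Aars and is listed at 0 in every library, so reads of Exosc6 cannot be told apart from those of Aars here. Yars, which charges tyrosine tRNA, was at 139.6, 138 and 144 CPM in normoxia and 93.6, 96.1 and 105 CPM in hypoxia (log2 change -0.52, SE 0.07, adjusted p by edgeR = 0.00095), and Tars, the threonine enzyme, at 135, 141 and 149 CPM and 91.8, 102 and 107 CPM (log2 change -0.50, SE 0.08, adjusted p by edgeR = 0.0022). In both genes each hypoxia library lay below each normoxia library.

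Sars, the serine enzyme, which also charges the tRNA for selenocysteine, stood at 303, 252 and 247 CPM in normoxia and 195, 189 and 199.8 CPM in hypoxia (log2 change -0.46, SE 0.09, adjusted p by edgeR = 0.0068). Its normoxia replicate 1 was well above the other normoxia libraries. Gars, the glycine enzyme of both compartments, was at 307, 274 and 285 CPM and 218, 202 and 221 CPM (log2 change -0.43, SE 0.08, adjusted p by edgeR = 0.0040). Vars, the valine enzyme, which binds elongation factor 1, had 417, 451 and 458 CPM in normoxia and 331, 332 and 329.6 CPM in hypoxia (log2 change -0.42, SE 0.07, adjusted p by edgeR = 0.0034). The hypoxia libraries of Vars were nearly equal to each other.

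Phenylalanine tRNA is charged by a tetramer of Farsa and Farsb subunits. Farsb fell, from 84.9, 77.1 and 88.3 CPM to 61.7, 63.5 and 72.4 CPM (log2 change -0.34, SE 0.08, adjusted p by edgeR = 0.019), whereas Farsa was at 55.9, 56.9 and 60.2 CPM in normoxia and 51.6, 50.98 and 56.2 CPM in hypoxia (log2 change -0.12, SE 0.07, adjusted p by edgeR = 0.26). The ratio of Farsb to Farsa reads was 1.52, 1.36 and 1.47 in normoxia and 1.20, 1.25 and 1.29 in hypoxia, without overlap. In an exact permutation test this ratio gave p = 0.1, two-sided, the smallest that 3 against 3 libraries allow. The call for Farsb was lost when hypoxia replicate 1 was left out (adjusted p by edgeR = 0.071), and likewise hypoxia replicate 2 (0.10), normoxia replicate 3 (0.059) or the replicate 1 libraries of both groups (0.056).

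In the multisynthetase complex, 4 of the 8 synthetase genes fell (Mars, Qars, Iars and Lars), where 9.72% of all tested genes did. The other 4 (Kars, Dars, Rars and Eprs) were not called. Mars, which charges both initiator and elongator methionine tRNA, was at 157, 152 and 159 CPM in normoxia and 106, 103 and 111 CPM in hypoxia (log2 change -0.54, SE 0.07, adjusted p by edgeR = 0.00054), a gap wider than the spread within either group. Qars, the glutamine enzyme, fell from 200.3, 186 and 181 CPM to 131, 134 and 139 CPM (log2 change -0.49, SE 0.07, adjusted p by edgeR = 0.0014). Iars, the isoleucine enzyme, fell from 251, 248 and 251 CPM to 172, 175 and 186 CPM (log2 change -0.49, SE 0.07, adjusted p by edgeR = 0.0011). Lars, the leucine enzyme and a known leucine sensor of the mTORC1 pathway, went from 165, 164 and 169 CPM to 113, 115 and 132 CPM (log2 change -0.47, SE 0.08, adjusted p by edgeR = 0.0030). In each of these genes the groups did not overlap.

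**Figure D2:**
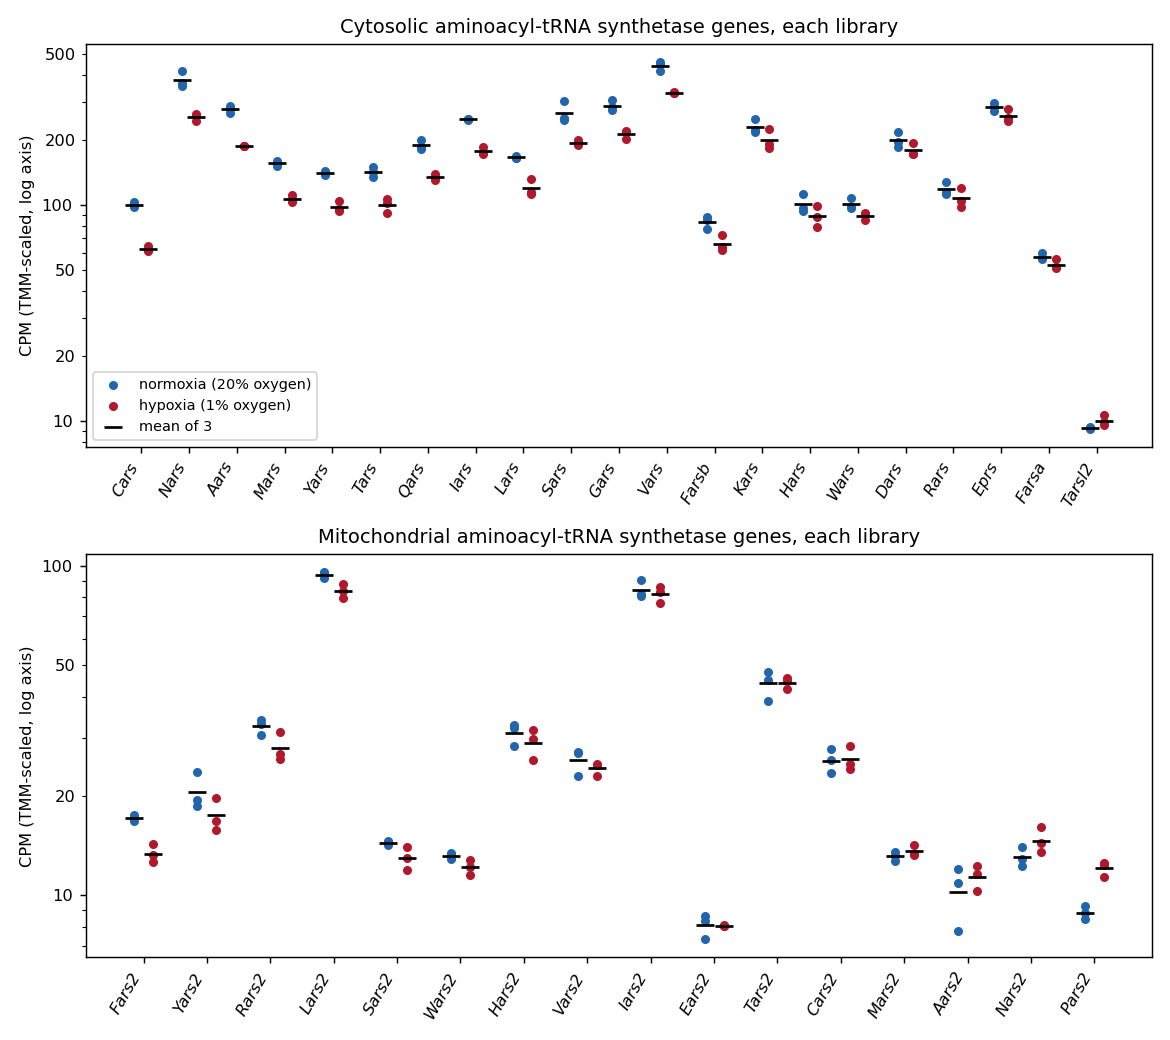
Level of 37 of the 38 genes in each of the 6 libraries, in TMM-scaled CPM on a log axis, cytosolic genes above and mitochondrial genes below, ordered by log2 change; black bars are means of 3 libraries. Blue (normoxia) and red (hypoxia) points stand apart for the genes from Cars to Farsb and overlap for most mitochondrial genes.

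The 8 cytosolic genes that were not called had small differences, and 7 of them pointed the same way. Kars, the lysine enzyme, was at 218, 222 and 251 CPM in normoxia and 183, 192 and 225 CPM in hypoxia (log2 change -0.20, SE 0.10, adjusted p by edgeR = 0.18). Replicate 3 was the highest library in both groups, which makes the groups overlap although hypoxia was lower at each replicate number. The same held for Hars, the histidine enzyme, at 93.6, 97.2 and 113 CPM and 79.2, 87.5 and 99.1 CPM, for Rars, the arginine enzyme, at 112, 115 and 128 CPM and 97.97, 104 and 120.4 CPM, and for Eprs, the fused glutamate and proline enzyme, at 272, 285 and 297 CPM and 244, 253 and 278 CPM. Over all 21 cytosolic genes, 20 were lower in hypoxia at all 3 replicate numbers, which 32.4% of all tested genes were.

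With the replicate block Kars, Hars, Wars, Rars and Eprs passed the test, with adjusted p by edgeR of 0.0065, 0.0063, 0.013, 0.031 and 0.039. Their log2 changes in that fit ran from -0.20 to -0.14, smaller in size than that of any of the 13 genes called without the block. Dars, the aspartate enzyme, had 217, 185 and 195 CPM in normoxia and 172, 172 and 194 CPM in hypoxia and was called in neither fit (adjusted p by edgeR = 0.26, and 0.079 with the block), and neither was Farsa (0.056 with the block).

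Wars, the tryptophan enzyme, is known as an interferon gamma responsive gene and was at 107, 97.1 and 97.7 CPM in normoxia and 91.7, 84.8 and 91.2 CPM in hypoxia (log2 change -0.17, SE 0.07, adjusted p by edgeR = 0.12). Its libraries did not overlap, as was the case for 14 of the 21 cytosolic genes in the lower direction, against 18.7% of all tested genes. Tarsl2, a second threonine enzyme of the cytosol, was the only cytosolic gene above 0, at 9.16, 9.34 and 9.23 CPM in normoxia and 10.6, 9.51 and 9.91 CPM in hypoxia (log2 change 0.11, SE 0.09, adjusted p by edgeR = 0.42). It was also the only cytosolic gene whose hypoxia libraries all lay above its normoxia libraries, which 19.6% of all tested genes did.

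**Figure D3:**
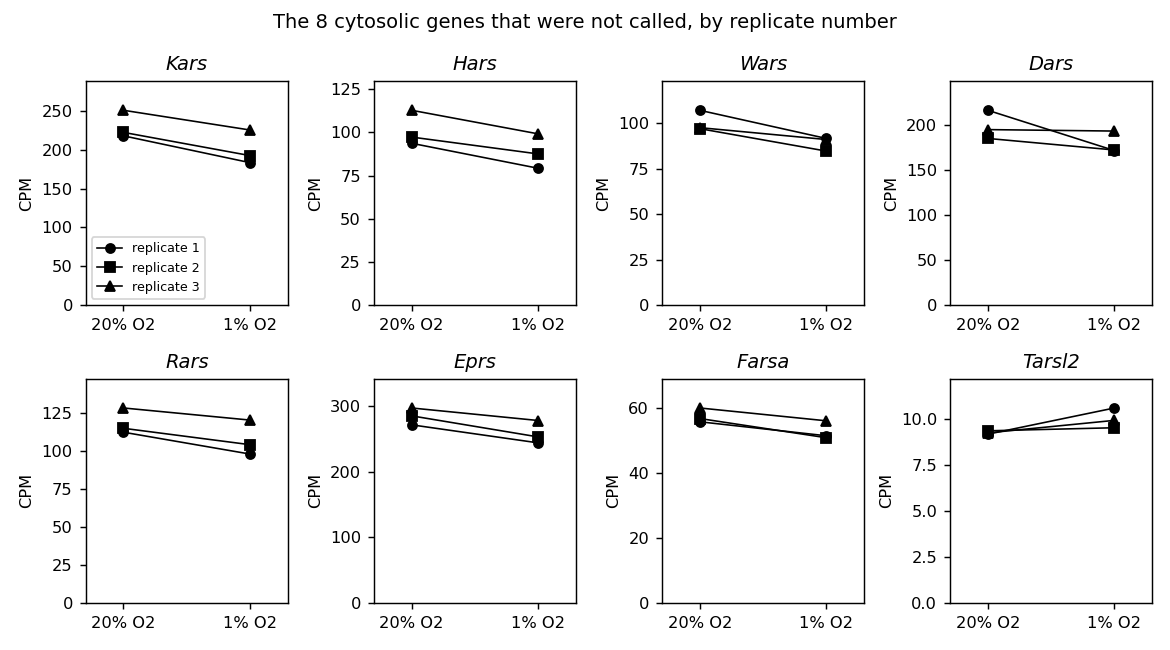
Level in CPM (vertical axes from 0) of the 8 cytosolic genes that were not called, at 20% and 1% oxygen, with lines joining libraries of the same replicate number. For Kars, Hars, Rars and Eprs the lines run downward side by side, with replicate 3 highest at both oxygen levels, and Tarsl2 runs upward.

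By catalytic class, 7 of 9 cytosolic class I genes fell (median log2 change -0.49) and 6 of 11 class II genes did (median -0.34), with Eprs, which has a domain of each class, left out. Of all tested genes 9.72% fell. With the replicate block 9 of the 9 and 8 of the 11 fell, where 20.0% of all tested genes did. The medians were -0.33 for the 8 genes of the complex and -0.43 for the 13 outside it, of which 7 and 11 fell with the block. Whether these groups of members differ from each other was not tested.

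Per kilobase of the longest coding transcript, the cytosolic genes lay between 31.1 (Cars) and 138 (Nars) CPM per kb in normoxia, apart from Tarsl2 at 2.90. The mitochondrial genes lay between 1.16 (Mars2, with an annotated transcript of 11.3 kb) and 24.1 (Lars2), all below the cytosolic genes other than Tarsl2. After Nars the highest levels per length were those of Gars (121), Vars (107), Kars (105) and Dars (91.5 CPM per kb). In hypoxia Kars (91.5) and Gars (89.8) stood just under Nars (93.3 CPM per kb), and Cars (19.4) had passed below Lars2 (21.5 CPM per kb). The longest Aars transcript contains Exosc6, so its level per length is uncertain.

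Among the mitochondrial genes, Fars2, the phenylalanine enzyme, which unlike the cytosolic tetramer acts as a single chain, fell from 17.2, 16.7 and 17.5 CPM to 12.6, 13.2 and 14.2 CPM (log2 change -0.36, SE 0.08, adjusted p by edgeR = 0.012), with no overlap between the groups. Without hypoxia replicate 2 Fars2 was not called (adjusted p by edgeR = 0.068). Pars2, the proline enzyme, rose from 8.45, 8.78 and 9.21 CPM to 12.5, 11.3 and 12.3 CPM (log2 change 0.45, SE 0.09, adjusted p by edgeR = 0.0070), again without overlap, and it was the only one of the 38 genes called higher in any of the 15 other settings tried.

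The other 14 mitochondrial genes were not called, with log2 changes from -0.24 (Yars2) to 0.16 (Nars2). Cars2, the cysteine enzyme, was at 23.4, 25.6 and 27.7 CPM in normoxia and 24.2, 28.3 and 24.96 CPM in hypoxia, and Tars2, the threonine enzyme, at 38.8, 45.03 and 47.6 CPM and 42.1, 45.5 and 44.6 CPM. Iars2, the isoleucine enzyme, was at 80.6, 82.2 and 90.2 CPM and 76.9, 82.8 and 86.2 CPM, and Ears2, the glutamate enzyme, at 7.33, 8.35 and 8.63 CPM and 8.01, 8.02 and 8.09 CPM. These 4 had the changes nearest 0, between -0.04 and 0.01, and their sign differed between settings.

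With the replicate block Yars2, Rars2 and Lars2 also fell (adjusted p by edgeR = 0.011, 0.0098 and 0.014), with log2 changes without the block of -0.24 (SE 0.12), -0.22 (SE 0.09) and -0.17 (SE 0.07). Sars2, Wars2, Hars2 and Vars2 lay between -0.15 and -0.08, and Mars2, Aars2 and Nars2 between 0.05 and 0.16, none of them called in either fit. In Aars2 the normoxia libraries were spread widely, at 7.75, 10.8 and 11.99 CPM.

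Set side by side by amino acid, the cytosolic gene was lower relative to its mitochondrial counterpart in hypoxia in most pairs. The ratio of the CPM of the cytosolic to that of the mitochondrial gene within a library does not depend on the scaling between libraries, and it was computed for 17 pairs, of which 14 had a lower mean log2 ratio in hypoxia. In 11 pairs each hypoxia library was below each normoxia library, in 1 each was above, and in 5 the groups overlapped. How often ratios of other genes stand apart in this way was not computed. The 17 pairs are not independent, since Eprs and Fars2 each enter more than 1 pair. In the exact permutation test, two-sided, 3 against 3 libraries cannot go below p = 0.1, so no pair could pass.

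For alanine (Aars over Aars2) the ratio was 34.4, 25.6 and 23.9 in normoxia and 16.2, 15.4 and 18.2 in hypoxia, a log2 difference of -0.74. For asparagine (Nars over Nars2) it went from 32.4, 29.03 and 26.2 to 18.2, 18.2 and 16.4, a difference of -0.73. For cysteine (Cars over Cars2) it went from 4.19, 4.02 and 3.58 to 2.54, 2.18 and 2.57, a difference of -0.70. In these 3 pairs the cytosolic gene fell and the mitochondrial gene was not called. Methionine (difference -0.59), threonine (-0.52), isoleucine (-0.45), valine (-0.34), leucine (-0.30), serine (-0.30) and tyrosine (-0.29) followed, each without overlap.

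Proline was the pair where the mitochondrial gene rose, with Eprs over Pars2 at 32.1, 32.5 and 32.3 in normoxia and 19.5, 22.4 and 22.5 in hypoxia (log2 difference -0.59). Phenylalanine was split by subunit, with Farsa over Fars2 higher in each hypoxia library than in each normoxia library, by 0.24 and Farsb over Fars2 at 0.02 with overlapping groups. Glutamate (Eprs over Ears2), histidine, tryptophan and arginine overlapped as well, at -0.13, -0.09, -0.06 and 0.08.

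**Figure D4:**
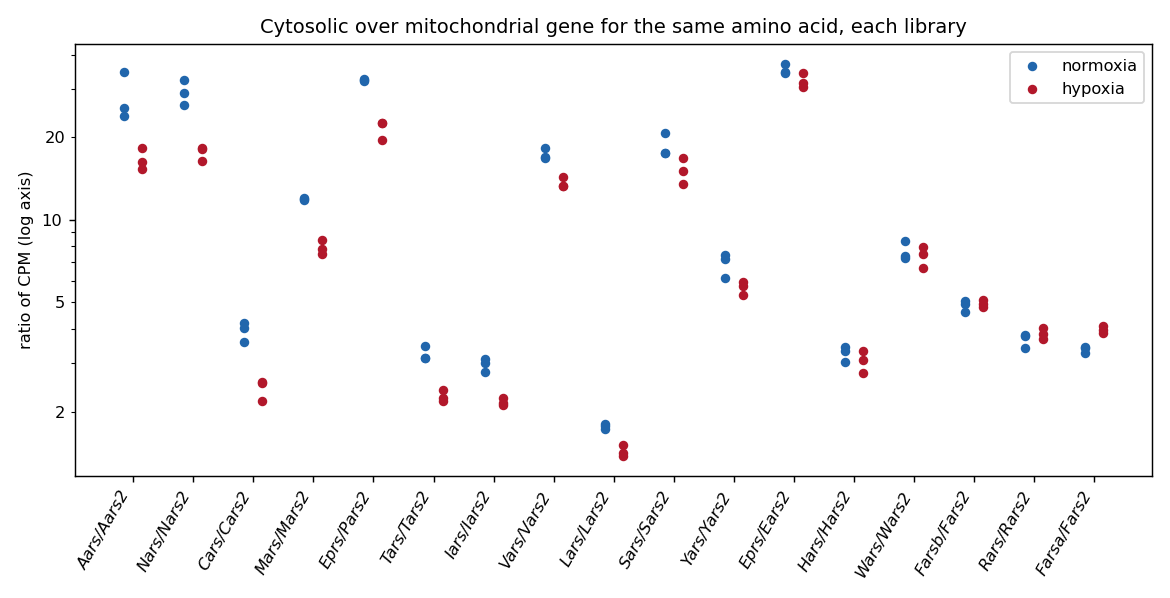
Ratio of the CPM of the cytosolic to that of the mitochondrial gene for the same amino acid, on a log axis, in each normoxia (blue) and hypoxia (red) library for 17 pairs, ordered by the log2 difference. The pairs from Aars/Aars2 to Yars/Yars2 stand lower in hypoxia without overlap, and Farsa/Fars2 stands higher.

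Some members share sequence or exons with neighbours in GENCODE M21, which matters because the submitters' notes name kallisto, a program that assigns reads by short words. Iars2 shared 22.4% of its 31-base words with Rab3gap2 on the opposite strand, which stood at 73.3 CPM in normoxia and 61.2 CPM in hypoxia and was itself called lower (adjusted p by edgeR = 0.019). Iars shared 14.5% with the gene model Gm4849, which held 8 counts over all 6 libraries. Smaller shares were those of Fars2 with Nrn1 (8.13%), Farsb with Sgpp2 (8.13%, 5 counts over all libraries), Cars with Gm15580 (2.75%) and Mars with Ddit3 (1.10%), all on the opposite strand. Hars and Hars2 lie on opposite strands, overlap by 195 bases of exon and shared 6.68% of the words of Hars. The libraries were strand-specific, but whether the counting used strand is not given in the sources used here, so opposite-strand partners may not be told apart.

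None of the 3 scaffold genes of the multisynthetase complex passed the test (0 by edgeR, DESeq2, limma-voom and limma-trend, and 0 at an unadjusted p under 0.05). Aimp1 was at 52.2, 52.6 and 57.99 CPM in normoxia and 41.4, 49.95 and 54.5 CPM in hypoxia, with a log2 change of -0.16 (SE 0.10). Aimp2 and Eef1e1 (also known as Aimp3) had log2 changes of -0.03 (SE 0.09) and -0.04 (SE 0.10), and both were above 0 with scaling by library size alone. With the replicate block Aimp1 passed as lower (adjusted p by edgeR = 0.045).

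Genes of the amino acid response, the pathway known to regulate cytosolic synthetases, were lower too. Whether ATF4 had a part in the lower synthetase levels was not tested. Of 20 listed ATF4 pathway genes outside the synthetases, 14 fell and 0 rose, where 9.72% of all tested genes fell. The median log2 change of the 20 was -0.56. With the other settings 12 to 15 fell and 0 to 2 rose. Atf4 itself fell from 541, 463 and 460.0 CPM to 289.9, 259 and 277 CPM (log2 change -0.83, SE 0.09, adjusted p by edgeR = 0.00026). Asns, the asparagine synthetase that makes the amino acid charged by Nars, fell from 169.8, 133 and 128 CPM to 85.01, 74.7 and 81.2 CPM (log2 change -0.84, SE 0.11, adjusted p by edgeR = 0.00073). Replicate 1 was the highest normoxia library in Atf4, Asns and Nars, but the lowest in Aars, Tars and Vars. The order of the normoxia libraries thus differed between synthetases.

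The listed genes with the smallest p were Nupr1, a stress-induced chromatin protein gene, at 2.46, 1.81 and 1.99 CPM in normoxia and 0.333, 0.346 and 0.285 CPM in hypoxia (log2 change -2.69, SE 0.22, adjusted p by edgeR = 5.2e-05), and Mthfd2, a mitochondrial folate enzyme gene, at 152, 131 and 142 CPM and 82.6, 83.2 and 85.1 CPM (log2 change -0.76, SE 0.08, adjusted p by edgeR = 0.00016). The 6 genes not called were Vldlr, Psph, Stc2, Atf5, Sesn2 and Cebpg, from -0.30 to 0.57 on the log2 scale. Vldlr passed as higher and Psph as lower with the replicate block (adjusted p by edgeR = 0.0059 and 0.0024).

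Amino acid transporters, which supply the substrates of the synthetases, were lower as well. Of 13 listed, 9 fell and 0 rose (median log2 change -0.35), where 9.72% of all tested genes fell. Slc7a5, the light chain of the transporter that brings in leucine, isoleucine, methionine, tyrosine and tryptophan, went from 468, 355 and 315 CPM to 188, 149 and 153 CPM (log2 change -1.22, SE 0.15, adjusted p by edgeR = 0.00046), and Slc1a4, a transporter of alanine, serine, cysteine and threonine, from 38.7, 32.05 and 29.8 CPM to 18.2, 15.2 and 15.4 CPM (log2 change -1.05, SE 0.11, adjusted p by edgeR = 0.00027). Slc3a2, Slc6a9, Slc38a2, Slc38a1, Slc7a1, Slc7a11 and Slc1a5 also fell. Slc7a6 was not called, at a log2 change of 0.25 (SE 0.08), and passed as higher with the block (adjusted p by edgeR = 0.0014).

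Upstream of ATF4, 4 of 8 listed genes fell and 0 rose (median -0.21), where 9.72% of all tested genes fell. Eif2ak4, the gene of GCN2, the kinase that senses uncharged tRNA, had 30.5, 33.8 and 34.8 CPM in normoxia and 26.1, 28.1 and 28.6 CPM in hypoxia (log2 change -0.26, SE 0.08, adjusted p by edgeR = 0.046). Eif2ak2, the gene of the interferon-induced kinase PKR, fell from 64.6, 70.8 and 61.5 CPM to 34.9, 36.9 and 39.2 CPM (log2 change -0.83, SE 0.08, adjusted p by edgeR = 0.00013), and Eif2ak3, the gene of the endoplasmic reticulum kinase PERK, from 150.0, 159 and 143 CPM to 114, 109.5 and 114 CPM (log2 change -0.42, SE 0.07, adjusted p by edgeR = 0.0028). Ppp1r15a, the stress-induced phosphatase subunit gene, fell as well. Of the 4 calls that of Eif2ak4 was nearest the threshold. Eif2ak2 and Eif2ak3 passed in all 15 other settings, and in 8 of those settings 3 genes of the list fell. With the replicate block 5 of the 8 fell, Ppp1r15b being added (adjusted p by edgeR = 0.023), where 20.0% of all tested genes did. mRNA levels do not show the activity of these kinases.

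MYC is known to drive synthetase genes in growing lymphocytes. Of 10 listed genes of MYC and its partners, some of them repressive, 2 rose (Mxd4 and Mycn) and 0 fell. Of all tested genes 11.2% rose and 9.72% fell. With the replicate block 3 of the 10 rose, Mxi1 being added (adjusted p by edgeR = 0.0042), where 19.2% of all tested genes did. Myc was at 106, 132 and 123 CPM in normoxia and 101, 118 and 123 CPM in hypoxia (log2 change -0.08, SE 0.10, adjusted p by edgeR = 0.62), with overlapping groups. Mxd4, a repressive partner of MAX, was at 82.5, 68.3 and 58.8 CPM and 104, 104 and 97.4 CPM (log2 change 0.55, SE 0.11, adjusted p by edgeR = 0.0075), and Mycn at 45.8, 63.8 and 63.2 CPM and 67.6, 81.6 and 88.6 CPM (log2 change 0.46, SE 0.14, adjusted p by edgeR = 0.040). Mxd4 passed in all 15 other settings and Mycn in 11, its adjusted p by edgeR reaching 0.14 without hypoxia replicate 3 and lying between 0.055 and 0.11 without hypoxia replicate 2, normoxia replicate 1 or normoxia replicate 2.

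Genes of tRNA handling outside the charging step were examined next. Of 13 genes of cytosolic tRNA export, splicing and methylation, 2 fell (Trmt1 and Ftsj1) and 0 rose, where 9.72% of all tested genes fell, and with the replicate block 8 of the 13 fell, where 20.0% of all tested genes did. Trmt1, a tRNA guanosine methyltransferase, went from 58.2, 64.7 and 65.7 CPM to 44.98, 45.6 and 48.6 CPM (log2 change -0.44, SE 0.07, adjusted p by edgeR = 0.0029), and Ftsj1, a ribose methyltransferase, had an adjusted p by edgeR of 0.0499 and was called in 3 of the 15 other settings. Xpot, the export receptor of mature tRNA, was at 156, 146 and 162 CPM and 128, 131 and 144 CPM (log2 change -0.21, SE 0.08, adjusted p by edgeR = 0.090, and 0.0063 with the block).

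Of 12 tested genes of mitochondrial tRNA processing and modification, 2 fell and 0 rose, and with the replicate block 4 fell. Of all tested genes 9.72% fell, and 20.0% fell with the block. Hsd17b10, a subunit of the mitochondrial ribonuclease P that cuts tRNAs from the primary transcript, fell from 82.8, 79.6 and 81.9 CPM to 49.97, 48.1 and 48.6 CPM (log2 change -0.74, SE 0.06, adjusted p by edgeR = 6.1e-05), a larger log2 change than that of any synthetase, though that difference was not tested. Trmu, which adds a thiol group to mitochondrial tRNA wobble bases, fell from 10.1, 11.2 and 11.005 CPM to 6.76, 7.41 and 7.88 CPM (log2 change -0.55, SE 0.10, adjusted p by edgeR = 0.0041). Of 9 mitochondrial translation factors, 2 fell (Gfm2 and Tsfm) and 0 rose, where 9.72% of all tested genes fell. Their log2 changes were -0.40 (SE 0.09) and -0.30 (SE 0.08), and in 7 of the other settings 1 of the 9 fell. With the replicate block 3 of the 9 fell, Tufm being added (adjusted p by edgeR = 0.0066), where 20.0% of all tested genes did.

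The mouse has no separate mitochondrial glutaminyl-tRNA synthetase gene, and Ears2 first charges the glutamine tRNA with glutamate, which the amidotransferase of Gatb, Gatc and Qrsl1 then converts. None of these genes nor Mtfmt, which formylates the initiator methionine tRNA, was called by edgeR (0 of 4, with 1 at an unadjusted p under 0.05) or by DESeq2, limma-voom or limma-trend. Gatb was at 12.2, 11.8 and 12.4 CPM in normoxia and 9.48, 9.99 and 11.2 CPM in hypoxia (log2 change -0.25, SE 0.09, adjusted p by edgeR = 0.095, and 0.024 with the block). The log2 changes of Gatc, Qrsl1 and Mtfmt were 0.08 (SE 0.09), -0.14 (SE 0.14) and -0.02 (SE 0.08).

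**Figure D5:**
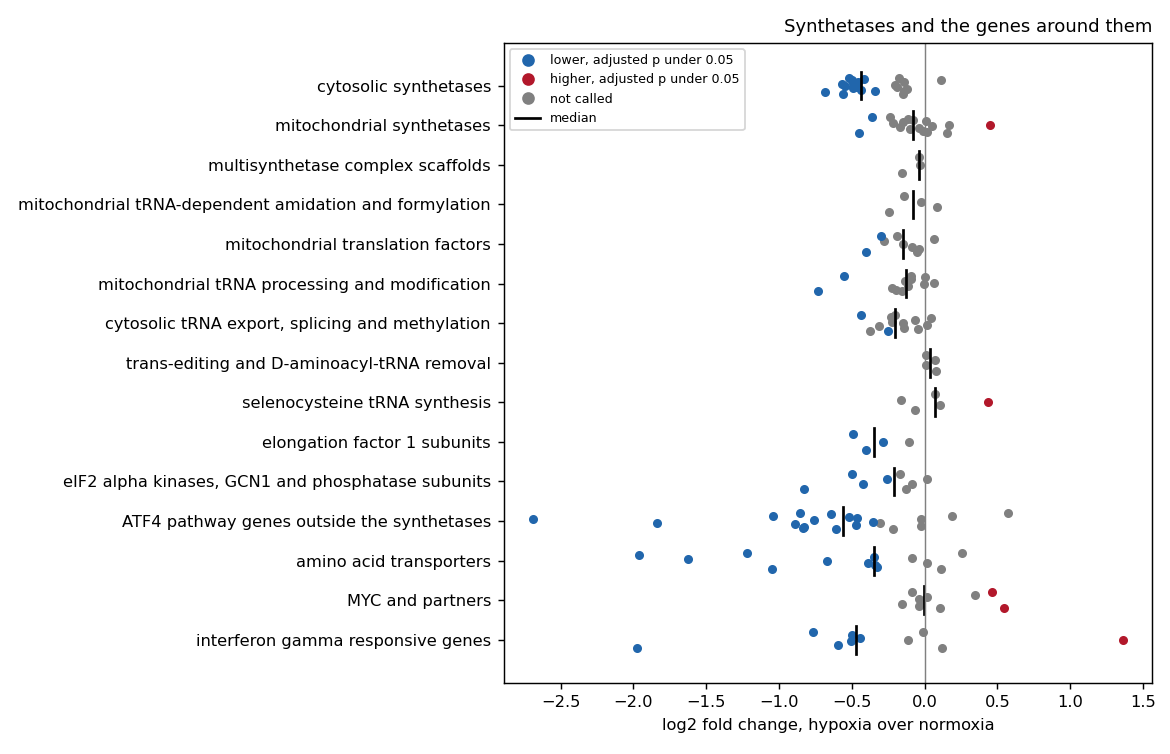
Log2 fold change, hypoxia over normoxia, of every tested gene of the synthetase groups and the listed pathways, with the median of each list as a black bar. Blue points passed the test as lower, red points as higher, and grey points were not called. The cytosolic synthetases, the ATF4 pathway genes and the amino acid transporters hold most of the blue points.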

How the data were processed

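RNA of 3 hypoxia and 3 normoxia libraries was sequenced on DNBSEQ from strand-specific mRNA libraries, per the labels' protocols. Per the submitters' processing notes Trim Galore 0.6.4, kallisto 0.4.6, edgeR 3.17 and the build GRCm39 were used, with no roles given, and no source used here gives the annotation release. The authors deposited estimated counts per Ensembl gene, which were rounded to whole numbers, and log2 CPM, identical (largest difference 0) to the output of edgeR's cpm function at prior count 2.

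Symbols, gene types and transcript lengths came from GENCODE M21 (52029 of 56953 IDs matched, the rest holding 0.316% to 0.396% of the counts). After filterByExpr (minimum count 10, minimum total 15) libraries were scaled with TMM and tested in edgeR 4.0.16 (glmQLFit, glmQLFTest) on all 15591 genes, without covariates; SE was derived as the size of the log2 change divided by the root of the F statistic. The script was tested on simulated data. Alternatives used DESeq2 1.42.0, limma 3.58.1, other scalings and filters, the replicate block and left-out libraries.

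Across genes, departures from the group mean correlated at 0.47, 0.33 and 0.30 between hypoxia and normoxia libraries that carry the same number, so by a criterion of 0.1 the replicate numbers of the labels were taken to pair the libraries. The replicate block used this pairing, while the main fit and the exact permutation test did not. Among libraries with unlike numbers, hypoxia 2 and normoxia 3 also passed that criterion, at 0.12, and the others were below 0. Departures within a group sum to 0 for each gene, so values above 0 at like numbers push those at unlike numbers below 0. Within a group, libraries were further apart than counting noise allows (chi-square per gene averaging 12.4 to 59.2). At this depth 1 count is about 0.018 CPM.

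The members and the gene lists were chosen with earlier results of these data known. Values of 1 member are not reported here. Values in every library are given for each other called member and for the 4 uncalled members nearest 0, and from each list the 2 genes with the smallest p are named, with Atf4, Myc, Asns, Xpot, the complex scaffolds and the amidation and formylation genes; other genes were named after their values were seen.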

Additional observations from a re-analysis of the deposited data

How the results depend on the processing

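For the cytosolic genes 12 to 13 fell and 0 rose in 14 of the 15 other settings, and 18 fell with the replicate block; 12 genes (all but Farsb) passed in every setting. The number of mitochondrial genes that fell was 5 with the block and 1 to 2 with single libraries left out, and 1 rose throughout. Over all genes, 2988 rose and 3120 fell with the block, 998 fell by library size scaling and 987 by limma-trend, and with single libraries left out 1146 to 1980 rose and 804 to 1636 fell. Changes of sign, all in genes that were not called, came under library size scaling and under limma-trend on the deposited log2 CPM, at 0.0027 and 0.0078 for Vars2, 0.0398 and 0.0410 for Iars2, 0.0695 and 0.0748 for Ears2, 0.0512 and 0.0540 for Aimp2, 0.0434 and 0.0410 for Eef1e1 and 0.0592 and 0.0614 for Mtfmt. Ears2 was 0.0061 with the stricter filter and Tars2 -0.0031 with no filter. Without both replicate 1 libraries Tars2 was -0.0406, Cars2 -0.0017, Aars2 -0.0197 and Eef1e1 0.0278. With single libraries left out the ranges were -0.0775 to 0.0074 for Iars2, -0.0794 to 0.0342 for Ears2, -0.0736 to 0.0698 for Tars2, -0.0482 to 0.0742 for Cars2, -0.0085 to 0.2866 for Aars2, -0.0897 to 0.0413 for Aimp2, -0.1276 to 0.0396 for Eef1e1, -0.0745 to 0.0061 for Mtfmt and -0.0026 to 0.2036 for Aarsd1. The causes of these changes were not tested. The block added calls for Kars, Hars, Wars, Rars, Eprs, Yars2, Rars2 and Lars2 among the members and removed none. The other calls among the members did not depend on it. With 3 libraries per group, small differences can be missed.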

Other observations

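Of 4 genes of elongation factor 1, which carries charged tRNA to the ribosome, 3 fell and 0 rose, where 9.72% of all tested genes fell. Eef1g was at 1389, 1212 and 1278 CPM in normoxia and 919, 864 and 975 CPM in hypoxia (log2 change -0.49, SE 0.09, adjusted p by edgeR = 0.0032), and Eef1a1, the carrier itself, at 17604, 15745 and 16321 CPM and 12464, 12015 and 13026 CPM (log2 change -0.41, SE 0.08, adjusted p by edgeR = 0.0065). The groups did not overlap in either gene. With limma-trend on the deposited log2 CPM 1 of the 4 fell. Of 10 interferon gamma responsive genes, the class to which Wars belongs, 6 fell and 1 rose, where 9.72% of all tested genes fell and 11.2% rose. Cxcl10 changed by -1.98 (SE 0.18) and Ciita by 1.36 (SE 0.15) on the log2 scale, while Wars was not called.

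Of 5 genes that make and deliver selenocysteine tRNA, which starts from tRNA charged by Sars, 1 rose and 0 fell, where 11.2% of all tested genes rose. Pstk, which phosphorylates the seryl-tRNA, went from 11.7, 11.3 and 11.5 CPM in normoxia to 16.2, 16.3 and 14.3 CPM in hypoxia (log2 change 0.44, SE 0.09, adjusted p by edgeR = 0.0065), opposite in sign to Sars at -0.46 (SE 0.09). Sephs2 was at -0.16 (SE 0.08), not called. With the replicate block 1 of the 5, Sephs2, fell (adjusted p by edgeR = 0.016), where 20.0% of all tested genes did. Of 4 genes that remove wrongly charged tRNA (Dtd1, Dtd2, Aarsd1 and Prorsd1), 0 were called by edgeR and 0 had an unadjusted p under 0.05, with log2 changes from 0.01 to 0.08.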
